A study of Homo sapiens with 9 samples.

Results

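ODC1 encodes ornithine decarboxylase, which converts ornithine to putrescine. This is the first and rate-limiting step in the synthesis of the polyamines putrescine, spermidine and spermine. Polyamines bind nucleic acids and are needed for cell growth, and ODC1 is a known transcriptional target of MYC that is often raised in tumors. The enzyme turns over within minutes to hours, because antizyme proteins bind it and deliver it to the proteasome without ubiquitin, so its mRNA level is one of several controls on its activity. The arrays measured the mRNA alone.

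ODC1 was found on the arrays as the probe that carries the RefSeq accession NM_002539, which was 1 of 60924 lncRNA and mRNA probes. It was 1 of 20 probes that can be named by accession, and each of these was printed in 10 spots per array. All 20 accessions matched a gene symbol (ODC1 is NCBI gene 4953). The other 60904 probes carry array identifiers without a gene name. The gene was selected on the differences of its array signal between the 3 lines, which were already known, so these differences are given below as a description with their errors and without a p-value. Where the fit over all probes called ODC1, the call is printed only beside the share of all probes called, and nothing is drawn from it.

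The study compared 3 human cell lines, IOSE80, SKOV3 and SKOV3-DDP, to find RNAs that differ between ovarian carcinoma and normal ovary cells and with cisplatin resistance. IOSE80 is a normal ovarian surface epithelial line made to grow continuously in culture, and SKOV3 derives from an adenocarcinoma of the ovary. The paper describes SKOV3-DDP as a variant of SKOV3 resistant to cisplatin. All were grown in the same medium with serum, and no drug treatment is stated for the arrays. Each line had 3 arrays with 1 Cy3-labeled sample each, and nothing in the labels says whether these came from separate cultures, so the errors below may be technical. Each line stands alone for its condition, so carcinoma, normal epithelium and drug resistance are each represented by 1 line. Of 13 epithelial, ovarian and mesenchymal marker genes listed for checking the lines, none had a probe that can be named, so the identity of the lines was not checked by markers.

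The SKOV3-DDP arrays stood apart from the other 6. Their 75th percentile of intensity lay between 48.2 and 54.3, against 163 to 192 on the IOSE80 arrays and 159 to 183 on the SKOV3 arrays. Of 4 control probes named for mouse GAPDH and PGK1, the GAPDH pair and one of the PGK1 pair were brightest on them. The 4 together summed to an intensity between 96513 and 133101 on the SKOV3-DDP arrays, between 5352 and 5904 on the SKOV3 arrays and between 1901 and 2137 on the IOSE80 arrays. The 4 human-named probes summed to between 101808 and 116281, between 292805 and 321005, and between 192889 and 201885 on the same arrays. All 4 mouse-named probes were well above background on each SKOV3-DDP array, and 3 of 4 were on each IOSE80 array. Of 4 rat-named probes, one for PGK1 was at a log2 intensity of 14.65 on the SKOV3-DDP arrays against 4.82 in IOSE80 and 2.92 in SKOV3, one for GAPDH was at 14.42 against 13.46 and 13.22, and the others were not brightest in SKOV3-DDP. Neither the origin of the RNA on these arrays nor the part of these signals in the ODC1 values was tested. The arrays were scanned in 2 batches, scan 1 with IOSE80 and SKOV3 replicates 1 and 2, and scan 2 with SKOV3 replicate 3 and SKOV3-DDP.

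ODC1 was brightest on the SKOV3 arrays, intermediate on the IOSE80 arrays and dimmest on the SKOV3-DDP arrays. Before any scaling, the mean background-corrected intensity of the ODC1 spots was 18689, 21977 and 19561 on IOSE80 arrays 1, 2 and 3. It was 63077, 57395 and 56211 on the SKOV3 arrays. On the SKOV3-DDP arrays it was 2225, 1999 and 1907. The 3 lines did not overlap. The SKOV3-DDP arrays were dimmer as a whole. Without scaling, 15272 of the 28578 tested probes were called lower in SKOV3-DDP than in IOSE80, by the threshold given below. Against SKOV3 15025 were called lower, and 4189 were called higher in SKOV3 than in IOSE80. The 90 single spots of the 3 lines did not overlap either. The dimmest SKOV3 spot was at 54843, the IOSE80 spots lay between 17079 and 22389, and the brightest SKOV3-DDP spot was at 2283. Spots on one array measure the same sample, so they are not replicates of a line.

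All 10 ODC1 spots were well above background on every array and none was saturated. The local background around the spots was between 33.0 and 53.0 over the 9 arrays, far below the dimmest spot, which was at 1810. Spots of one array agreed closely. The SD over the 10 spots was between 0.02 and 0.08 on the log2 scale. The largest of these values was on SKOV3-DDP array 1, where the 2 dimmest spots were marked by the scanner software as outliers among their 10. Another 3 spots were so marked on IOSE80 array 3. These 5 spots were left out of the means. No spot position was bright or dim on all arrays, and the mean offset of a position from its array's mean was at most 0.01 in size.

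**Figure D1:**
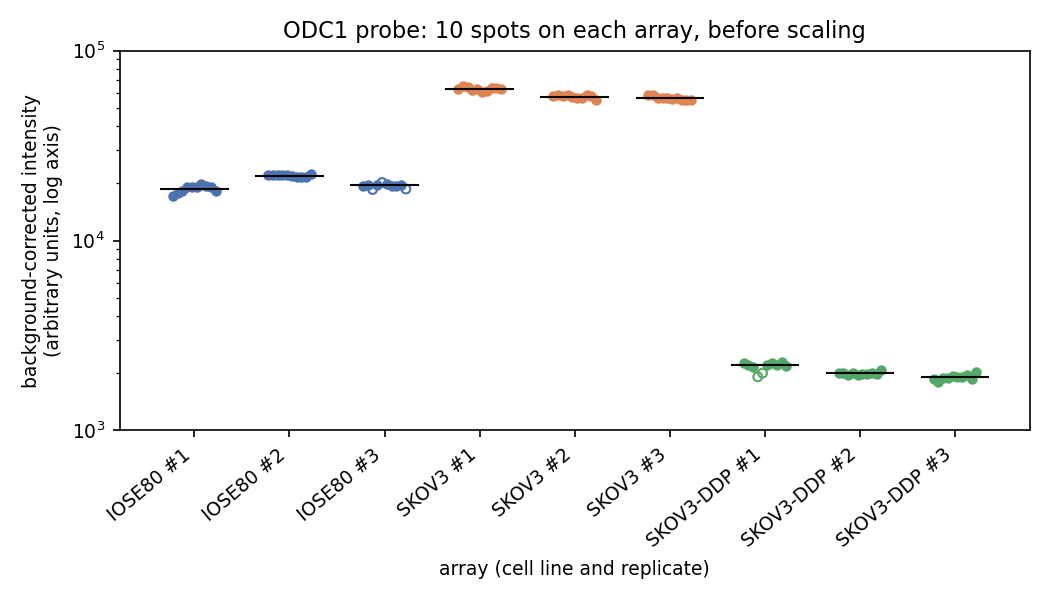
Background-corrected intensity of the ODC1 probe on a log axis, with 10 spots for each of the 9 arrays. Filled points were used, open points are the 5 spots marked as outliers, and black lines are the geometric means of the used spots, which run from 1907 on SKOV3-DDP array 3 to 63077 on SKOV3 array 1.

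For comparisons between lines, each array's own 75th percentile was subtracted from its log2 signals, with the percentile taken over the 15196 probes detected well above background on every one of the 9 arrays. On this scale ODC1 was at 1.99, 2.01 and 2.05 on the IOSE80 arrays, at 3.74, 3.67 and 3.51 on the SKOV3 arrays, and at 1.54, 1.20 and 1.10 on the SKOV3-DDP arrays. IOSE80 had a mean of 2.02 ± 0.03 (SD, n = 3 arrays). The mean of SKOV3 was 3.64 ± 0.12 (SD, n = 3) and that of SKOV3-DDP was 1.28 ± 0.23 (SD, n = 3). The order was SKOV3, IOSE80, SKOV3-DDP, and neighbors in this order were separated by more than their spread. The spread within SKOV3-DDP was set in part by the scaling, because the SD of its arrays was 0.11 before scaling, while that of IOSE80 was 0.12 before and 0.03 after.

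The place of ODC1 within its own array, which no scaling changes, had the same order. On the IOSE80 arrays 97.5% to 97.6% of the probes were dimmer than ODC1. On the SKOV3 arrays 99.3% to 99.4% were dimmer, and on the SKOV3-DDP arrays 96.0% to 96.7%. Brightness depends on a probe's sequence as well as on the amount of RNA, so these shares place the ODC1 signal in the range of the array and are not a ranking of genes by expression.

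**Figure D2:**
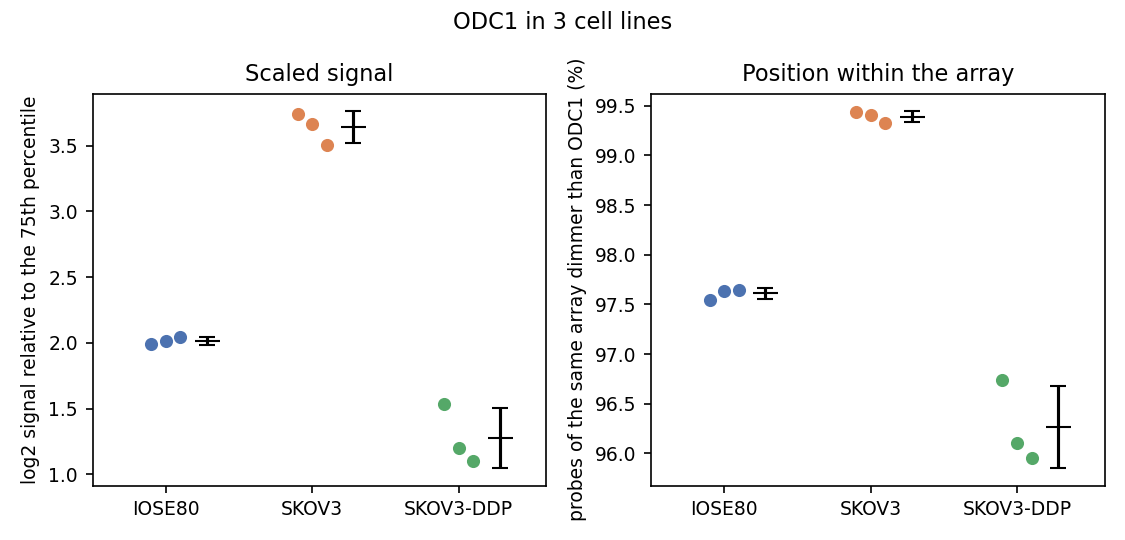
Left, the log2 signal of ODC1 relative to the 75th percentile of the probes detected on every array. Right, the percentage of probes on the same array that were dimmer than ODC1. Points are arrays and bars are the mean ± SD of 3 arrays, with the SKOV3 arrays above the IOSE80 arrays and the SKOV3-DDP arrays below them in both panels.

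Between SKOV3 and IOSE80, which addresses how the carcinoma line differs from the normal line, ODC1 was higher in SKOV3 by 1.62 on the log2 scale (standard error 0.15 from limma), or 3.08-fold. This error pools the spread of all 3 lines, moderated by limma toward the spread of all tested probes, and is the same in each comparison. With only the 6 arrays compared it was 0.10 here. It was then 0.15 for SKOV3-DDP minus IOSE80 and 0.18 for SKOV3-DDP minus SKOV3. The 9 pairs of one SKOV3 and one IOSE80 array differed by 1.46 to 1.75. Arrays report RNA from a whole culture, so RNA per cell and the share of cells that make it cannot be told apart. Of the 28578 probes tested, limma called 15.9% higher and 17.5% lower in SKOV3, where a call needed a more than 2-fold change and an adjusted p (Benjamini-Hochberg) below 0.05. ODC1 was among those called higher. Over the 28538 of these tested probes that had a value on every array compared, the SKOV3 arrays all lay above the IOSE80 arrays for 33.5%, ODC1 included, and all below for 31.5%. The median of all tested probes differed by 0.08 between these lines, and 90.8% of them had a smaller or more negative difference than ODC1. Within scan 1, the difference was 1.69, since SKOV3 replicate 3 is then absent. Because ODC1 was chosen with this difference known, its place among the called probes is no separate evidence.

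Between SKOV3-DDP and IOSE80, the value for ODC1 was -0.74 (standard error 0.15), or 1.67-fold lower in SKOV3-DDP. Each of the 9 pairs of arrays had a lower value in SKOV3-DDP, by -0.45 to -0.95. The difference did not pass the fold change of 2 that a call required. In this comparison 29.8% of the tested probes were called lower and 52.2% higher. The SKOV3-DDP arrays all lay below the IOSE80 arrays for 33.9% of tested probes, ODC1 included, and all above for 57.2%. The numbers called were 14923 higher and 8524 lower, and after quantile normalization 11864 higher and 10442 lower. With the percentile over all probes they were 11804 and 10363, and without scaling 3047 and 15272. The median of all tested probes moved the other way, by 1.24, so that relative to this median ODC1 was at -1.98. The size of the ODC1 difference depended on the scaling. It was -0.83 after quantile normalization and -1.56 with the percentile of all probes together. It was -3.30 without scaling. ODC1 was called lower in the last 2, and the sign was the same in each. The 2 lines share no scan.

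Between SKOV3-DDP and SKOV3, of which the paper calls it a cisplatin-resistant variant, ODC1 showed the widest gap of the 3 comparisons. At -2.36 (standard error 0.15), ODC1 was 5.14-fold lower in SKOV3-DDP. The 9 pairs of arrays ranged from -1.97 to -2.64. ODC1 was among the 28.1% of tested probes called lower, beside 52.8% called higher. It was also among the 32.2% of tested probes for which the SKOV3-DDP arrays all lay below the SKOV3 arrays, while they all lay above for 57.2%. The median of all tested probes differed by 1.27, and ODC1 lay at -3.63 relative to it. After quantile normalization the median was 0.42, with ODC1 at -3.06 relative to it, and without scaling the median was -1.22. Over all tested probes, scaling to the percentile of the detected probes called 15095 higher and 8043 lower. Quantile normalization called 11610 higher and 10113 lower, with ODC1 at -2.64. The percentile over all probes called 11454 higher and 9964 lower, and without scaling 2724 were higher and 15025 lower. Within scan 2, against the single SKOV3 array there, the difference was -2.23. The SKOV3-DDP arrays of this comparison are also those with bright mouse-named and rat-named control probes. Whether their RNA came only from a variant of SKOV3 was not tested. The difference therefore describes these arrays and cannot be assigned to resistance.

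**Figure D3:**
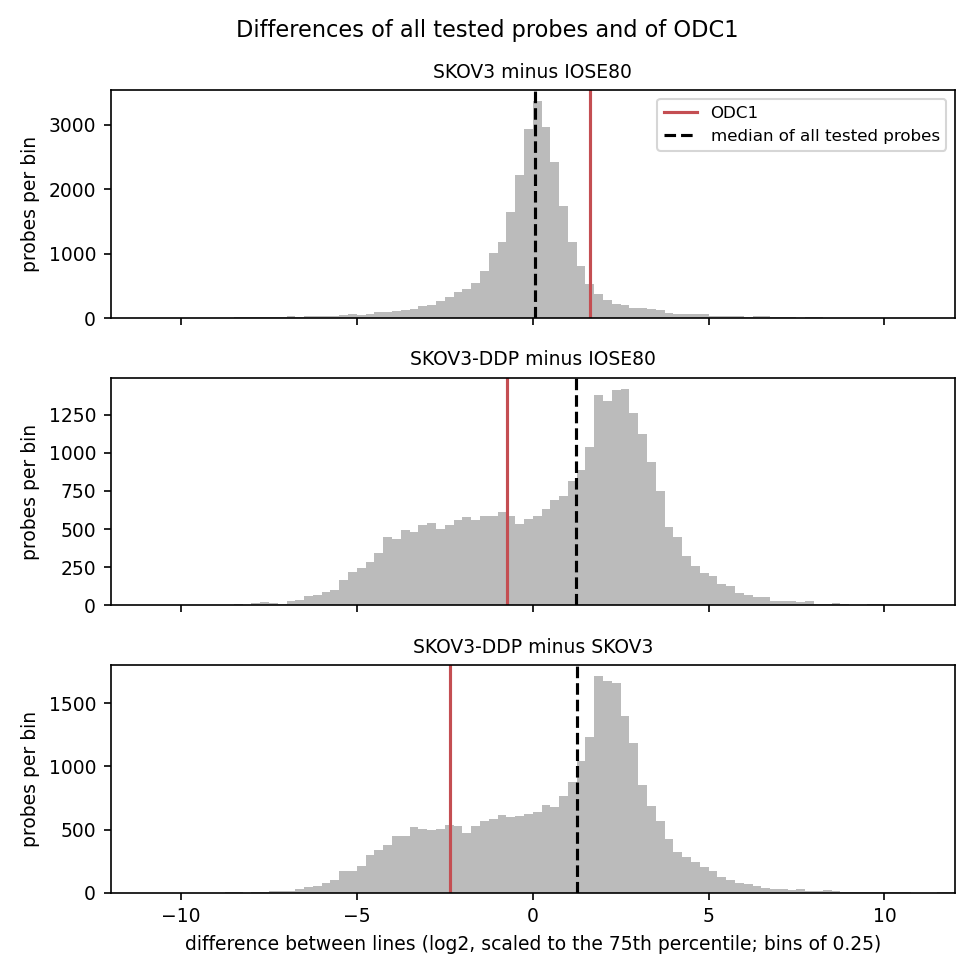
Distribution of the log2 difference over 28578 tested probes in each comparison, in bins of 0.25, with ODC1 as a red line and the median of all tested probes as a dashed line. ODC1 lies in the upper tail for SKOV3 minus IOSE80 (1.62) and below the median in both comparisons with SKOV3-DDP (-0.74 and -2.36).

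The 3 differences of ODC1 kept their signs under 16 alternative settings each, some of which could not change them. Ratios to other probes, given below, were not among these settings. SKOV3 minus IOSE80 moved least, between 1.55 and 1.81. SKOV3-DDP minus IOSE80 ranged from -0.54 to -3.30 and SKOV3-DDP minus SKOV3 from -2.23 to -4.85. The 3 comparisons share arrays, so they are not independent of each other.

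**Figure D4:**
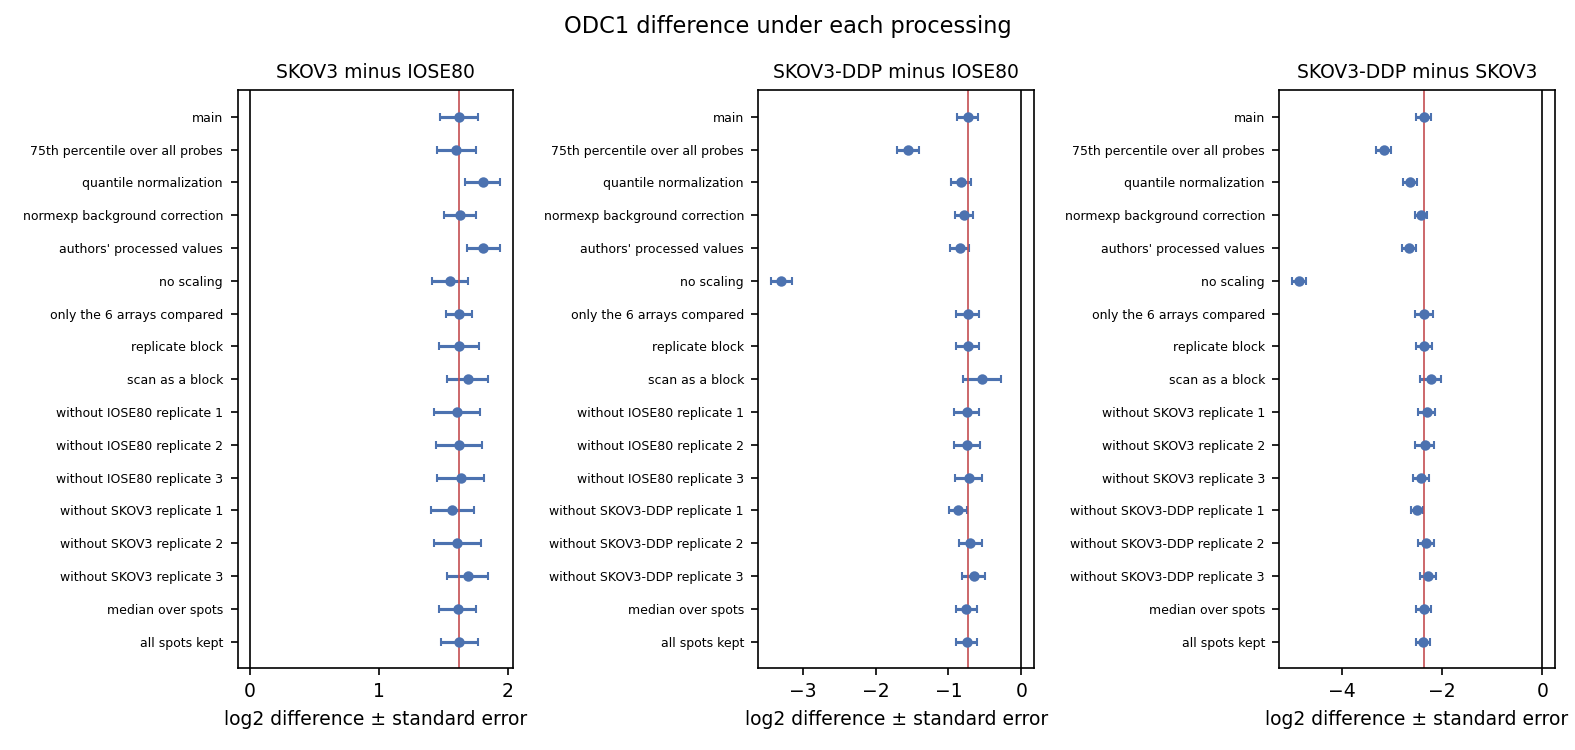
Log2 difference of ODC1 with its standard error (bars, from limma) under the main setting and each alternative, for the 3 comparisons. Every value lies above 0 for SKOV3 minus IOSE80 and below 0 for both comparisons with SKOV3-DDP, where the values without scaling (-3.30 and -4.85) lie farthest from the main ones.

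The ratio of ODC1 to another probe on the same array does not change with a scaling factor, though it does with quantile normalization. ACTB, which encodes the cytoskeletal protein beta-actin and served as the internal control of the study's quantitative PCR, was used first. In IOSE80 the log2 ratio of the ODC1 signal to the ACTB signal was -2.92 ± 0.12 (SD, n = 3 arrays). In SKOV3 it was -1.36 ± 0.13 (SD, n = 3), and SKOV3-DDP was at -5.67 ± 0.14 (SD, n = 3). Only changes of this ratio between lines can be read, since the probes differ in brightness for the same amount of RNA. The ratio was higher in SKOV3 than in IOSE80 by 1.56, and SKOV3-DDP stood at -2.75 against IOSE80 and at -4.31 against SKOV3. In the authors' processed values the last 2 were smaller, at -0.94 and -2.79, and after quantile normalization they were -0.93 and -2.63. The lines did not overlap in any of these.

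With GAPDH, which encodes a glycolytic enzyme, in place of ACTB, the same differences were 1.37, -2.86 and -4.24. Those with SKOV3-DDP were -1.17 and -2.65 in the authors' values and -1.16 and -2.63 after quantile normalization. Other GAPDH probes did not all behave alike before scaling. One human-named control probe had log2 intensities of 16.4, 16.7 and 16.6 in IOSE80, SKOV3 and SKOV3-DDP. The other was at 15.0, 14.9 and 12.6. The size of a difference relative to GAPDH in SKOV3-DDP thus depends on the probe. Both references themselves differed in SKOV3-DDP under percentile scaling, ACTB by 2.01 and GAPDH by 2.12 against IOSE80. After quantile normalization they differed by 0.10 and 0.33. That method gives each array the same set of values, so a probe that stays among the brightest changes little by construction. These small differences therefore do not show that the references are stable. The median of the 17 other named probes detected on every array was used as well. Relative to it ODC1 was higher in SKOV3 than in IOSE80 by 1.54. Between SKOV3-DDP and IOSE80 it was at -0.37 with overlapping arrays, and it turned to 0.63 in the authors' processed values and 0.65 after quantile normalization. Against SKOV3 the value was -1.91, and it was -1.13 in the authors' values. The lower ODC1 signal of SKOV3-DDP compared with SKOV3 was thus seen against each of these references, whereas the sign of the comparison with IOSE80 turned between normalizations for the third reference.

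Among the 19 named probes tested, ODC1 had the second highest difference between SKOV3 and IOSE80, and 17 of the 18 others lay below it. The others ranged from -2.37 to 2.22 with a median of 0.03, and 10 were above 0 and 8 below. This rank was the same without scaling, with both percentile scalings, with normexp background correction, after quantile normalization and in the authors' values. Between SKOV3-DDP and SKOV3 only 2 of the 18 others lay below ODC1 with percentile scaling, and 5 did after quantile normalization. Between SKOV3-DDP and IOSE80 ODC1 was in the middle of the order, with 8 others above and 10 below. Before scaling, its difference of -3.30 in that comparison stood beside a median of -3.44 over the 18 others and of -1.32 over all tested probes.

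Named genes were ordered by how close their values over the 9 arrays lay to those of ODC1, each gene centred on its own mean. DYNLL1, which encodes a light chain of cytoplasmic dynein, was the closest, and PGK1, which encodes the glycolytic enzyme phosphoglycerate kinase, was also among the closest 3. Their root-mean-square differences from ODC1 were 0.51 and 0.66 (log2, 9 arrays). This likeness is not particular to these genes, as 716 of 28518 tested probes were closer to ODC1 than DYNLL1 was. Both shared the order of ODC1, with SKOV3 highest and SKOV3-DDP lowest. DYNLL1 differed from IOSE80 by 0.54 in SKOV3 and by -1.62 in SKOV3-DDP. PGK1 differed by 2.22 and -1.73. Its probe was dim on the SKOV3-DDP arrays, at unscaled log2 signals of 4.99, 4.97 and 4.85. It was still marked well above background on each of the 9 arrays. With normexp background correction PGK1 lay between -3.329 and -3.096 on the SKOV3-DDP arrays. On the IOSE80 arrays it then lay between -3.005 and -2.815. The order held, but the size of this PGK1 difference depended on the background correction. After quantile normalization DYNLL1 was again the closest, at 0.65, while PGK1 was at 0.89 and no longer among the closest 3.

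**Figure D5:**
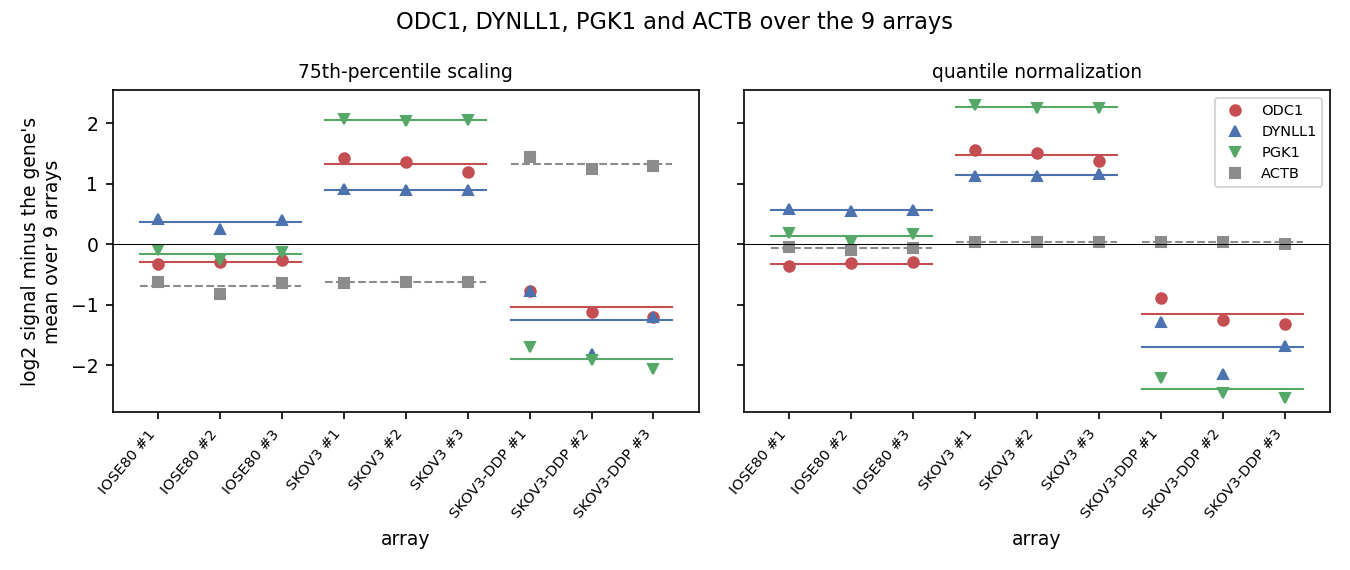
Log2 signal minus each gene's own mean over the 9 arrays, for ODC1, DYNLL1, PGK1 and ACTB, with percentile scaling (left) and quantile normalization (right). Points are arrays and short lines are the means of each cell line. ACTB is level over the lines on the right only, where a probe that stays among the brightest changes little by construction.

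The other genes of the polyamine pathway could not be followed. Of 28 genes listed for polyamine synthesis, breakdown, transport, antizymes and antizyme inhibitors, methionine salvage, hypusination and transcriptional control of ODC1, ODC1 alone had a probe that can be named, and 0 of the other members did. The arrays may hold probes for these genes under array identifiers. No statement on the pathway beyond ODC1 was therefore made.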

How the data were processed

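Total RNA of 3 lines was hybridized to one-color Arraystar human lncRNA arrays (3 per line). The authors deposited each array's scanner output with background-corrected intensities, per the file headers from Feature Extraction 11.0.1.1 (the submitters' processing notes name 10.7.3.1), and a table of processed log2 values, with the same distribution in each column, whose normalization is not given in the sources used here. In this table, as after quantile normalization here, the ODC1 means were 13.5, 15.3 and 12.7 in IOSE80, SKOV3 and SKOV3-DDP. The authors' values and quantile normalization are therefore not separate checks. Groups and replicate numbers come from the sample titles.

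Log2 intensities were averaged per probe, without non-uniform spots (10 to 39 per array) and population outliers of replicated probes. Each array was scaled by its 75th percentile over the 15196 probes detected well above background on every array. The 28578 probes detected so on 3 or more arrays were fitted with limma 3.58.1 in R 4.3.3 with the line as factor, after a test on simulated data. Accessions were named through a RefSeq table (GRCh38.p14). The arrays' build is hg19, so no coordinates are printed, and probe sequences were not used here. Python 3.11.15, pandas 2.3.3, numpy 2.4.6 and matplotlib 3.10.9 were used. The number of arrays limits the precision.

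ODC1, the gene lists and the tests were chosen with earlier results of these data known. The genes named are ODC1, ACTB and GAPDH as references, polyamine genes with a named probe, and the 3 named genes, detected on every array, closest to ODC1 by root-mean-square difference, of which 1 is not reported here. Alternatives were the same percentile over all probes, quantile normalization, normexp (offset 50, on median spot signals), the authors' values, the 6 arrays alone, replicate and scan blocks, each array left out, other uses of spots, other filters on dim probes, other reference genes and, for the counts of called probes, the methods' t-test. The values without scaling were added after seeing the data.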

Additional observations from a re-analysis of the deposited data

Results flagged for a closer look

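Against IOSE80, ODC1 went in opposite directions in SKOV3 and SKOV3-DDP, with every SKOV3 array above and every SKOV3-DDP array below every IOSE80 array. Such separation was common, at 33.5% of tested probes for SKOV3 above IOSE80 and 33.9% for SKOV3-DDP below IOSE80. The share of probes with both was not computed. The origin of the RNA on the SKOV3-DDP arrays was not tested. The gap SKOV3-DDP minus SKOV3 was -2.36 on the log2 scale. This gap is a description and no p is given for it, because the gene was chosen with these values known, and both comparisons share the IOSE80 arrays. The difference between SKOV3-DDP and IOSE80, -0.74, was under the 2-fold change that a call needed. Relative to the median of the other named probes it was -0.37 with overlapping arrays, and 0.63 in the authors' values and 0.65 after quantile normalization without overlap.

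A signal outside the main measurement appeared on the SKOV3-DDP arrays. The control probe named for mouse GAPDH that was the brighter of its pair there had a log2 intensity of 15.72 ± 0.35 (SD, n = 3 arrays). The same probe was at 4.42 ± 0.26 on the IOSE80 arrays, and 0 of those 3 arrays had it well above background. On the SKOV3 arrays it was at 4.97 ± 0.07, with 1 of 3 well above background.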

How the results depend on the processing

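The ODC1 difference kept its sign under each of the 16 alternatives in each comparison. For SKOV3 minus IOSE80 it was 1.81 with quantile normalization and 1.81 in the authors' processed values, and 1.57 to 1.69 with 1 array left out. For SKOV3-DDP minus IOSE80 it was -1.56 with the percentile over all probes, -3.30 without scaling (chosen after seeing the data) and -0.54 with the scan as a block, a term that rests on 1 SKOV3 array, and -0.87 to -0.65 with 1 array left out. It was called lower under 2 of the 16, the percentile over all probes and no scaling. These settings called 10363 and 15272 of the 28578 tested probes lower. For SKOV3-DDP minus SKOV3 the ODC1 difference was -3.16 with the percentile over all probes, -2.64 with quantile normalization and -2.66 in the authors' values. It was -4.85 without scaling and -2.49 to -2.27 with 1 array left out. ODC1 was called under all 16 alternatives in both comparisons with SKOV3. The main fits called 9566 of 28578 probes for SKOV3 minus IOSE80 and 23138 for SKOV3-DDP minus SKOV3, so nothing is drawn from these calls. The remaining ODC1 differences lay within 1 SD between replicates. The cause of these shifts was not tested.

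Deviations of same-numbered arrays correlated between -0.06 and 0.17, and not every array correlated best with its own number, so the numbers were not taken as pairs. With the replicate block the differences were 1.62, -0.74 and -2.36, and the numbers of called probes 9582, 23464 and 23141, against 9566, 23447 and 23138 without it. These counts are of 28578 probes tested. When only the 15196 probes detected on every array were tested, the numbers called were 3801, 12577 and 12467, and when all 60924 were, 10685, 52161 and 51782.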
